A study of Mus musculus with 39 samples.

Results

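The olfactory receptor genes of mouse chromosome 7 were described by the nucleosome wrapping and the replication timing of the domains that hold them in embryonic stem (ES) cells. Members were all protein-coding genes of the chromosome in the mm10 annotation whose symbol is Olfr followed by a digit, which gave 244 of the 21938 protein-coding genes of the genome. They made up 21.5% of the 1135 protein-coding Olfr genes, which lie on 18 chromosomes. The rule uses symbol and chromosome and no measured value, but it was set with earlier results of these data known. The symbol Olfr290 occurs under 2 gene identifiers, so that the 244 genes carry 243 symbols, and 7 symbols carry the suffix "ps1" although the annotation lists the genes as protein-coding. A further 49 Olfr loci of the chromosome are annotated as pseudogenes and were left out.

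Olfactory receptors are the odorant-detecting receptors of the nasal sensory neurons, coupled to G proteins, and they form the largest gene family of mammals. Each mature neuron transcribes a single allele of a single receptor gene, while the other receptor genes are packed into silent heterochromatin. Class I receptors, the type also found in fish, lie in a single large cluster on this chromosome that encloses the β-globin genes, and all other receptors are of class II. ES cells are pluripotent cells and are no model of the olfactory neuron.

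The study used wild-type R1 cells, a line of mouse ES cells, throughout, and 39 of its samples were listed. Wrapping-seq reads from the lengths of MNase fragments how far the DNA is wrapped around the histone core, and 4 libraries of histone H3 from 2 experiments gave the list of nucleosome wrapping domains (NRDs). In that list a positive wrapping index, which is a z-score, stands for a tight domain (TiNRD) and a negative one for a loose domain (LoNRD). Tight and loose refer here to the DNA on single nucleosomes and not to the compaction of chromatin. The study reports more heterochromatin marks in LoNRDs and more euchromatin marks in TiNRDs, so a loose call does not stand for open chromatin. Replication timing (RT) came from 8 libraries of BrdU-labelled DNA, the sorted S-phase fractions S1 to S4 in 2 sets, and a positive log2 ratio of early to late fractions stands for an early domain. The lists held 632 TiNRDs, 611 LoNRDs, 832 early RT domains and 979 late RT domains as used here, with stretches between them that have no call, and all counts and ranks hold for these lists only.

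Each gene took the value of the domain that holds its midpoint. Genes of the same domain therefore share 1 value and are not replicates of each other. Each list is a single set of calls with no column per experiment and no read numbers. The depth behind a domain is therefore unknown from the lists, they give no spread between replicates, and no test was made. Timing tracks of the single experiments were not analysed here. All values below describe these lists.

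Along the chromosome, the receptor genes fell into 8 clusters when genes under 500 kb apart were joined. The clusters are numbered here in the order of their coordinates, and together they spanned 5664 kb. Cluster 5 alone held 129 genes, or 52.9% of all, and it is the class I cluster. The other clusters held 2 to 42 genes, and the density ran from 3.48 genes per 100 kb in cluster 8 to 6.03 in cluster 1. The genes lay in 13 NRDs and 11 RT domains.

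Most of the receptor genes were in loosely wrapped and late-replicating domains. LoNRDs held 184 of the 244 genes (75.4%), TiNRDs held 58 (23.8%) and 2 genes had no NRD call. Of all protein-coding genes 21.9% lay in LoNRDs, and of the other 1779 protein-coding genes of chromosome 7 it was 12.6%. Late RT domains held 176 receptor genes (72.1%), against 22.5% of all protein-coding genes and 20.1% of the other genes of the chromosome. Both calls together, loose and late, applied to 162 receptor genes (66.4%), to 14.2% of all protein-coding genes and to 9.33% of the other genes of chromosome 7. The median wrapping index over the receptor genes was −0.43, with a range of −0.95 to 1.05, and the median RT value was −0.75, with a range of −0.97 to 1.08. Both medians changed sign when each domain was counted once, to 0.08 over 13 NRDs and 0.25 over 11 RT domains, and the means of the cluster medians were −0.063 and −0.0064.

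**Figure D1:**
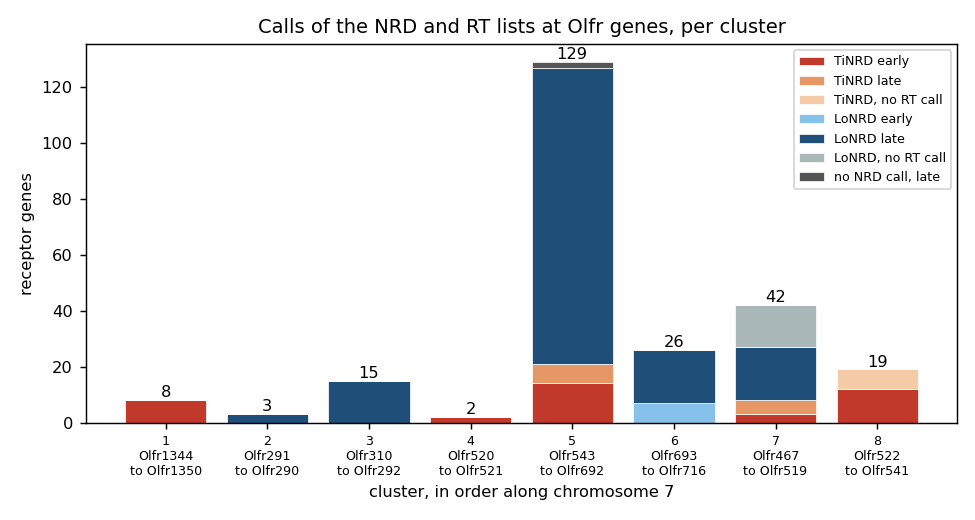
Number of receptor genes (vertical axis) in each of the 8 clusters of chromosome 7 (horizontal axis, with the first and last gene), stacked by the call of the NRD and of the RT domain at the gene's midpoint. Clusters 1, 4 and 8 are wholly TiNRD, clusters 2, 3 and 6 wholly LoNRD, and clusters 5 and 7 are mixed, with 106 of 129 and 34 of 42 genes in LoNRDs.

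The NRD call was uniform in some clusters and changed inside others. In 3 clusters with 29 genes in all, every gene was in a TiNRD. In another 3 with 44 genes, every gene was in a LoNRD. The mixed clusters were 2, numbers 5 and 7, with 129 and 42 genes. Every cluster with a uniform NRD call lay inside a single NRD, so its genes share that call by position. The RT call also changed inside cluster 6, where 19 genes were late and 7 early. A cluster can be counted once in place of each of its genes. LoNRDs then held most genes of 5 of the 8 clusters (62.5%), and late RT domains held most genes of 5 (62.5%). The joint call, loose and late, covered most genes of 4 (50%). Clusters are not independent either, since clusters 2 and 3 lie in the same LoNRD and the same late RT domain.

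Cluster 1 held 8 genes, from Olfr1344 to Olfr1350 (chr7:6438688-6571401), and all were tight and early. Their TiNRD (chr7:6000001-9400000) had a wrapping index of 0.74, and their early RT domain (chr7:5950001-6700000) a log2 value of 0.78. The TiNRD held 50 protein-coding genes, among them 17 Vmn2r genes and 1 Vmn1r gene, which encode vomeronasal receptors, and 12 zinc finger genes. Only 50.6% of the 100-base words of this TiNRD occur at a single place of the main chromosomes, against 91.5% in the span of the cluster itself. The part of repeated sequence in the value of this domain was not tested.

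Clusters 2 and 3 were the loosest receptor clusters. Olfr291 to Olfr290 (3 genes, chr7:84853553-84920861) and Olfr310 to Olfr292 (15 genes, chr7:86268487-86697507) lay in the same LoNRD (chr7:84600001-89300000), whose wrapping index was −0.95, and 87.2% of all LoNRDs of the genome had a value closer to 0. They also shared a late RT domain (chr7:84400001-89250000) with a log2 value of −0.72. Of the 41 protein-coding genes of this LoNRD, 18 were olfactory receptor genes and 15 were Vmn2r genes.

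Cluster 4 was a pair of genes, Olfr520 and Olfr521 (chr7:99730273-99769321), in tight and early domains. The TiNRD (chr7:97800001-102700000) had a wrapping index of 0.89 and the early RT domain (chr7:95850001-102650000) a log2 value of 1.08. Both domains ended inside the first part of cluster 5, and both also held Omp, the gene of the olfactory marker protein of mature sensory neurons.

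Cluster 5, the class I cluster, ran from Olfr543 to Olfr692 (chr7:102476579-105369355), with 65 genes on the plus strand and 64 on the minus strand. It crossed 6 NRDs and 4 RT domains. LoNRDs took up 72.6% of its 2893 kb and late RT domains 81.9%. Of its 129 genes, 106 were both loose and late, 14 were tight and early, 7 were tight and late, and 2 had no NRD call and were late.

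At its start, 11 genes from Olfr543 to Olfr554 were still in the tight and early domains of cluster 4. The RT border at 102650000 came 50 kb before the NRD border at 102700000, and Olfr555, Olfr556 and Olfr557 lay between the borders, tight (0.89) but late (−0.75). From Olfr558 to Olfr592 there followed 28 genes in a LoNRD of 500 kb (chr7:102700001-103200000) with a wrapping index of −0.36, and receptor genes were 28 of its 28 protein-coding genes. The late RT domain (chr7:102650001-104100000) had a value of −0.75 and ran on through the next LoNRD.

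Olfr558, a receptor for branched short-chain fatty acids that is also transcribed outside the nose, was the first gene past the NRD border (chr7:102702215-102712064), and its midpoint lay 7.14 kb inside the LoNRD. Olfr78, a receptor for short-chain fatty acids known from the carotid body and blood vessels, lay in the same LoNRD (chr7:102738511-102759471). Both genes were loose and late. A border is no finer than the 100 kb bins of the NRD calls and the 50 kb windows of the RT calls.

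A gap of 100 kb without an NRD call (chr7:103200001-103300000) held Olfr593 and Olfr594. The next LoNRD (chr7:103300001-104100000, −0.51) held 48 receptor genes, Olfr596 to Olfr645, among 55 protein-coding genes. The genes Hbb-bt and Hbb-bs of adult β-globin, Hbb-bh1 and Hbb-y of embryonic globins, and Hbb-bh2 lay inside the same domain, between chr7:103812524 and 103853216. All 5 globin genes thus had the same values as these 48 receptor genes, a wrapping index of −0.51 and an RT value of −0.75.

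A tight and early island interrupted the cluster after Olfr645. The TiNRD (chr7:104100001-104500000) had a wrapping index of 0.08, and only 17 of the 632 TiNRDs (2.69%) had a value closer to 0. The early domain (chr7:104100001-104450000) had a log2 value of 0.25, and 53 of 832 early domains (6.37%) were closer to 0. With 350 kb it was also among the shortest, since 0.481% of early domains were shorter. The island held 3 receptor genes, from Olfr646 to Olfr649, among 17 protein-coding genes. Its other genes included the olfactomedin gene Olfm5 and Trim genes such as Trim5 and Trim30a, whose family includes factors of antiviral defence.

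Past the island, 30 genes from Olfr651 to Olfr688 lay in a LoNRD (chr7:104500001-105300000) with a wrapping index of −0.33, the value closest to 0 among the 6 LoNRDs that hold receptor genes. Their late RT domain (chr7:104450001-105500000) had a log2 value of −0.97, the lowest among the receptor genes, and 86.7% of all late domains were closer to 0. The wrapping index and the RT value therefore did not follow the same order within this cluster. The last 4 genes, Olfr689 to Olfr692, were in a TiNRD (chr7:105300001-105900000, 0.48) and still in this late RT domain. Cnga4, which encodes a subunit of the cyclic nucleotide-gated channel of olfactory transduction, lay in the same TiNRD and late domain.

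**Figure D2:**
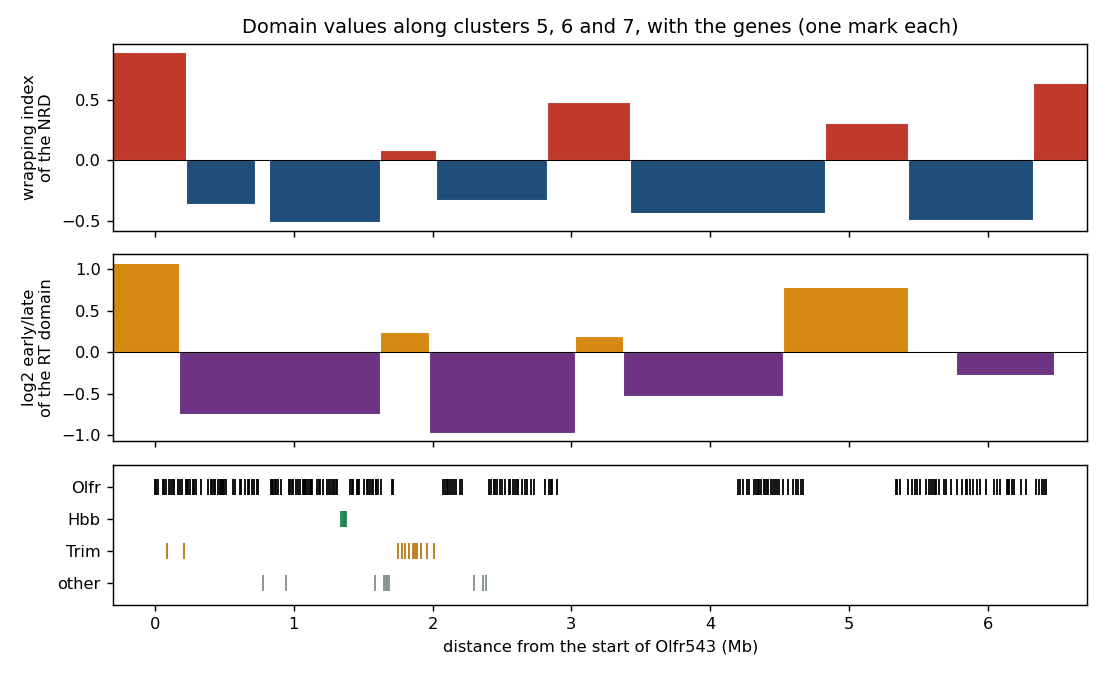
Wrapping index of the NRDs (top, positive TiNRD, negative LoNRD) and log2 early/late value of the RT domains (middle) against the distance in Mb from the start of Olfr543, with a mark for each gene of clusters 5 to 7 and of the globin, Trim and other genes inside cluster 5 (bottom). Most receptor genes sit over negative bars in both panels, the Trim genes of cluster 5 sit mainly over the island with a wrapping index of 0.08, and stretches without a bar have no call.

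The genes between the receptors also differed in their calls. Inside the span of cluster 5 lay 27 other protein-coding genes, of which 16 were in TiNRDs, 10 in LoNRDs and 1, Usp17ld, in the gap. Both calls were tight and early for 14 of them, and this included 10 of the 12 Trim genes. All of these 10 but Trim21 lay in the island and share its values. Of all protein-coding genes, 76.9% were in TiNRDs and 66.9% were tight and early. The 10 loose genes were all late. In cluster 8 the genes Cd163l1 and 5830411N06Rik lay between the receptors and were tight and early, and the other clusters enclosed no other protein-coding gene.

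Cluster 6 (chr7:106675005-107150581) held 26 class II genes, from Olfr693 to Olfr716, in a single LoNRD (chr7:105900001-107300000) with a wrapping index of −0.43. The RT call changed inside the cluster. The first 19 genes, Olfr693 to Olfr711, were in a late domain (chr7:105850001-107000000, −0.53), and the last 7, Olfr2 to Olfr716, were in an early one (chr7:107000001-107900000, 0.79). These 7 were the only receptor genes of the chromosome that were loose and early.

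The 7 genes included both well-studied receptors of this cluster. Olfr2, the I7 receptor for octanal (chr7:106995399-107006072), had its midpoint 0.735 kb from the RT border, so that its early call rests on less than 1 window of 50 kb. Olfr17, the P2 receptor used in studies of axon targeting (chr7:107093220-107099808), lay farther inside the early domain. In the late RT domain of this cluster, 65.1% of the 100-base words were unique among the main chromosomes. The part of repeated sequence in its value was not tested.

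Cluster 7 (chr7:107812263-108894420) held 42 class II genes, from Olfr467 to Olfr519. The first 3 genes, Olfr467 to Olfr470, were in a TiNRD (chr7:107300001-107900000, 0.30) and in the early domain that also holds the end of cluster 6. The next 34 genes filled a LoNRD (chr7:107900001-108800000, −0.49) in which they were the only protein-coding genes. Of these, the 15 genes from Olfr472 to Olfr487 had no RT call, since they lay in a gap of 350 kb (chr7:107900001-108250000). The 19 genes from Olfr488 to Olfr513 were in a late domain (chr7:108250001-108950000) with a log2 value of −0.27, and 58 of 979 late domains (5.92%) were closer to 0. The last 5 genes, Olfr514 to Olfr519, were in the same late domain but in a TiNRD (chr7:108800001-110300000, 0.64).

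Cluster 8 lay apart, 31266 kb beyond cluster 7, and its 19 genes from Olfr522 to Olfr541 (chr7:140159999-140705606) were all tight. Their TiNRD (chr7:124700001-145400000) was the longest of the chromosome, with 20700 kb and 343 protein-coding genes, and it had the highest wrapping index at any receptor gene, 1.05. Olfr522 to Olfr527 (5 genes) had an early call with an RT value of 1.05, and Olfr538 to Olfr541 (7 genes) in another with 1.07. The 7 genes from Olfr60 to Olfr536 lay in a gap of 200 kb between these early domains and had no RT call.

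**Figure D3:**
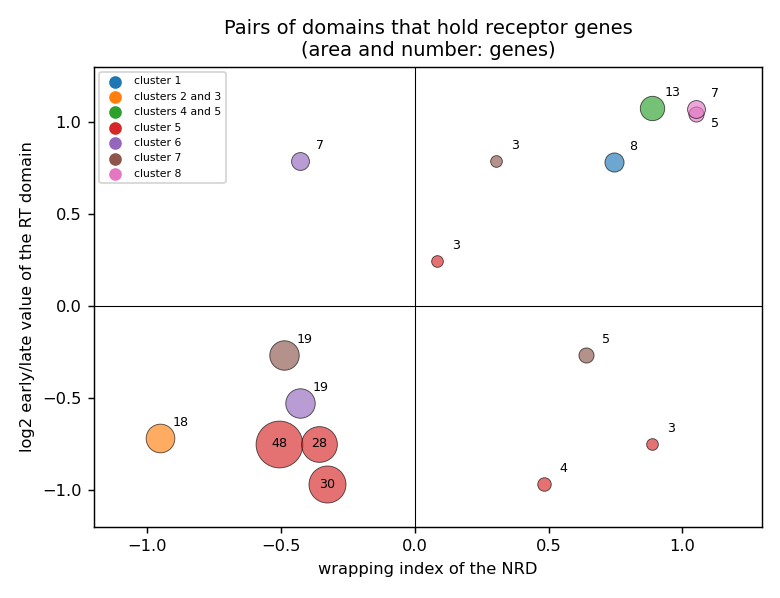
Wrapping index of the NRD (horizontal axis) against the log2 early/late value of the RT domain (vertical axis) for each pair of domains that holds receptor genes, with circle area and number giving the genes and colour giving the cluster. The 220 genes with both calls are shown, 162 of them in the lower left and 39 in the upper right part, and the genes of 1 circle share both values.

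Of the 220 receptor genes with both calls, 91.4% had corresponding ones, tight with early or loose with late. It was 85.3% for all protein-coding genes and 86.8% for the other genes of chromosome 7. The remaining 19 genes were 4 runs beside a domain border inside a cluster. There were 12 tight and late genes, near the start of cluster 5 (3 genes), at its end (4 genes) and at the end of cluster 7 (5 genes), and 7 loose and early genes in cluster 6. Of the 244 genes, 63 had their midpoint within 100 kb of an NRD border and 25 within 50 kb of an RT border. The same counts were not made for other genes. The median distance was 222 kb to the nearest NRD border and 196 kb to the nearest RT border.

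The loose domains of clusters 5 to 7 consisted mainly of receptor genes. Receptor genes were 28 of 28, 48 of 55, 30 of 33, 26 of 30 and 34 of 34 protein-coding genes in these 5 LoNRDs. In the 7 TiNRDs with receptor genes they were 5.54% to 33.3% of the protein-coding genes. The values of the loose receptor genes lay close to those of other loose genes of the chromosome. The median wrapping index of those in LoNRDs was −0.49, beside −0.50 for the other genes of chromosome 7 in LoNRDs and −0.68 for all protein-coding genes in LoNRDs.

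Receptor genes of other chromosomes were compared in the same lists. Of the 891 Olfr genes outside chromosome 7, 80.6% were in LoNRDs, 69.7% in late RT domains and 65.1% in both, and 125 of the 891 were tight and early, beside 39 of the 244 on chromosome 7. The 294 Olfr genes of chromosome 2 were in LoNRDs for 98.0% and late for 84.4%, with a median wrapping index of −0.90. The share of tight and early Olfr genes ranged over the chromosomes from 0% of 28 genes on chromosome 6 to 100% of 9 genes on chromosome 15, so chromosome 7 lay inside the range of the family. Among the vomeronasal receptor genes of chromosome 7, 84.5% of 103 Vmn1r and 82.4% of 51 Vmn2r genes were late. LoNRDs held 54.4% and 49.0% of them, and 34.0% of the Vmn1r genes were tight and late. These shares were not tested, because genes of the same domain share their call.

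**Figure D4:**
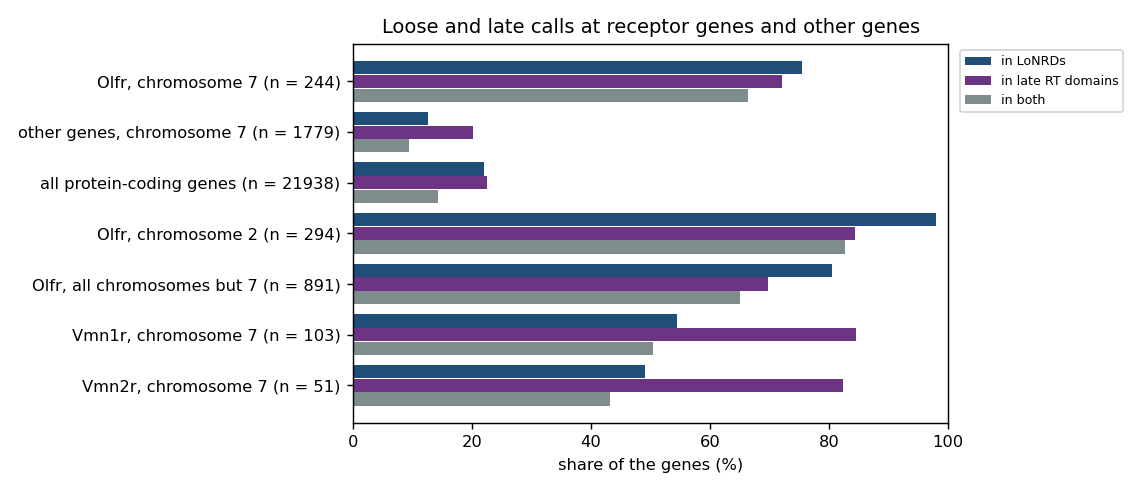
Share of genes in percent (horizontal axis) in LoNRDs, in late RT domains and in both, for the receptor genes of chromosome 7 and for 6 other sets of protein-coding genes with their numbers (vertical axis). The chromosome 7 receptor genes reach 75.4%, 72.1% and 66.4%, against 21.9%, 22.5% and 14.2% of all protein-coding genes.

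The other genes of odour detection and receptor choice were looked up in the same lists. A list of 23 genes was used, with signalling proteins of the sensory cilia and regulators of receptor choice. Of these, 22 were in TiNRDs and 1 in a LoNRD, 18 were early, 4 late and 1, Ebf2, had no RT call. Of all protein-coding genes, 76.9% were in TiNRDs and 73.7% were early, and the list was not tested against them. Adcy3, the adenylyl cyclase of the cilia, had a wrapping index of 0.71 and an RT value of 1.12. Lhx2 and its cofactor Ldb1, which bind receptor enhancers, had indices of 0.74 and 1.00 and RT values of 0.86 and 1.57. Kdm1a, a histone demethylase needed for the first activation of a receptor gene, had 1.29 and 1.76. The loose gene was Cnga2, which encodes the main subunit of the olfactory channel, with a wrapping index of −0.50, and it was late (−0.75). Ano2, Cnga4 and Emx2 were tight and late. Ebf3, a transcription factor gene of chromosome 7, lay in the same TiNRD as cluster 8.

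Sequence was read from the reference for examples of genes in tight and loose domains. The 250 bases before the start of each gene in the GENCODE annotation are given for 4 members. Olfr558 is from the first loose part of cluster 5, Olfr646 from the tight island, Olfr17 from the loose and early part of cluster 6 and Olfr522 from cluster 8. They were not chosen as typical of these parts. Capitals mark a match to TAATGA, a homeodomain-type motif, on either strand, and the other letters carry no mark. The windows are, in mm10, chr7:102701965-102702214 (+ strand), chr7:104104623-104104872 (+), chr7:107092970-107093219 (+) and chr7:140164765-140165014 (−).
Olfr558: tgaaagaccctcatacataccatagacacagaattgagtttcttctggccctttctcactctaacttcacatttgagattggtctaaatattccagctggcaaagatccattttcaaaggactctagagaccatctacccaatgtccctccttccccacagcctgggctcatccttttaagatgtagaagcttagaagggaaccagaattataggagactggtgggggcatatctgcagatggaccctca
Olfr646: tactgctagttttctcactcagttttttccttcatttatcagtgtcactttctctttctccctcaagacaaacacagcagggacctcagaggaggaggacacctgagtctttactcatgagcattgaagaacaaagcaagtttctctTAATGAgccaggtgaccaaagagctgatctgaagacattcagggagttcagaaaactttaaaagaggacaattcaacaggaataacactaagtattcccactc
Olfr17: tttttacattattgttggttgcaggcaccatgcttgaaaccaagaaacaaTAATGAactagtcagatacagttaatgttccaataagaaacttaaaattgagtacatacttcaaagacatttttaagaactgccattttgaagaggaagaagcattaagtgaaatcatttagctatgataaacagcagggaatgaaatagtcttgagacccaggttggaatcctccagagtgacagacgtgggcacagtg
Olfr522: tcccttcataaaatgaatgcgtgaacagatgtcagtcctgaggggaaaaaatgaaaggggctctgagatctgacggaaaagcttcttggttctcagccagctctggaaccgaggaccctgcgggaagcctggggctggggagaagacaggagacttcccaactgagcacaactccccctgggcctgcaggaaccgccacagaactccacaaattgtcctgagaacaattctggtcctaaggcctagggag
The A/T content of these windows was 55.2%, 58.8%, 63.6% and 46.0%, and they held 0, 0, 1 and 5 CpG dinucleotides. The loose Olfr558 thus lay below the tight Olfr646, the reverse of the medians of all loose and tight members (62.6% and 54.4%).

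Over all 244 genes, the windows before the start were rich in A/T and poor in CpG. Their median A/T content was 60.8% (range 42.4% to 78.4%), against 46.0% over 21931 protein-coding genes. No CpG was found in 115 of them (47.1%), against 7.57% of all genes. The windows of genes in LoNRDs had a median of 62.6% (n = 184) and those in TiNRDs of 54.4% (n = 58), and 48.9% and 41.4% of them had no CpG (37.5% and 22.6% in the RefSeq windows). Among clusters the median ran from 50.0% in cluster 8 to 66.8% in cluster 2.

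Motifs were searched on both strands of the same windows, and no matches to different motifs overlapped. TATAAA, the core of the TATA box, was found in 80 windows (32.8%), against 11.5% of all genes. TAATGA was found in 71 windows (29.1%), against 8.61%. It was in 17.1% of the windows of cluster 5, in 57.7% of those of cluster 6 and in 54.8% of those of cluster 7, a contrast that the RefSeq windows described next did not show (28.04%, 27.3% and 33.3%). The palindrome TCCCNNGGGA, of the type bound by Ebf factors, was found in 4 windows (1.64%), against 0.894%. Short A/T-rich motifs occur more often in A/T-rich sequence, and the part of base composition was not tested. A match is a match of letters only.

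RefSeq windows of GRCm38, from 250 bases before to 50 after the start of a gene, gave a partly different picture. They were found for 207 symbols. The sequence at the start was an ATG in 158 of them (76.3%), against 6.75% of all windows in that table, so that most of them lie before the coding sequence and not before the transcript. The start lay within 100 bases of the GENCODE start for only 39. For some genes both annotations gave the same start with an ATG there, so the GENCODE windows of these genes also lie before the coding sequence. In these windows TATAAA was in 43.0% (14.2% of all), TAATGA in 25.6% (9.99% of all) and the Ebf-type palindrome in 0.483% (0.914% of all).

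Base composition followed the NRD calls on the scale of bins as well. Chromosome 7 was divided into bins of 100 kb. The 42 LoNRD bins with receptor genes had an A/T content of 59.5% to 65.1%, with a median of 61.4%, and the 17 TiNRD bins with receptor genes 52.7% to 60.4%, with a median of 57.7%. The medians of bins without receptor genes were 60.7% for 422 LoNRD bins and 55.0% for 932 TiNRD bins. Of the 17 tight receptor bins, 15 lay above the median of the tight bins without receptor genes and 0 above the median of the loose bins without them. The ranges of tight and loose receptor bins overlapped between 59.5% and 60.4%.

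Bins of equal A/T content were compared next. Between 59.3% and 61.9% A/T, 27 of 30 receptor bins (90.0%) and 225 of 288 other bins (78.1%) were LoNRD bins. Most bins of this composition were thus loose with or without receptor genes. The part of base composition in the wrapping index was not tested.

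**Figure D5:**
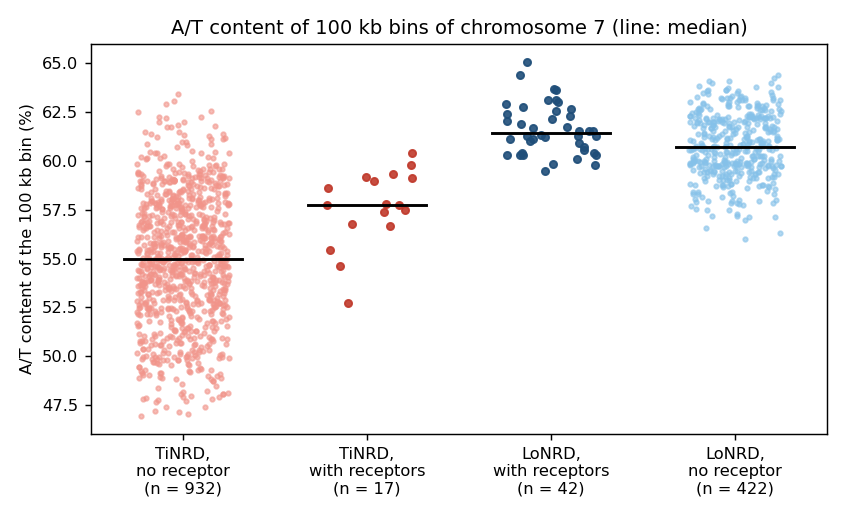
A/T content in percent (vertical axis) of the 100 kb bins of chromosome 7, in 4 groups by NRD call and by whether a receptor gene has its midpoint in the bin, with each point a bin and each line a median. The tight bins with receptor genes (median 57.7%) lie between the tight bins without them (55.0%) and the loose bins (61.4% and 60.7%).

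Per cluster, the span was 63.98% A/T in cluster 3, the highest, and 56.1% in cluster 4, the lowest. The clusters that were wholly tight had 56.1% to 58.1%, and the other 5 had 60.0% to 63.98%, so that these sets did not overlap. In all, the cluster spans had 60.6% A/T, 45.0% repeats and 91.0% of 100-base words that are unique among the main chromosomes. The whole of chromosome 7 had 56.9%, 35.4% and 89.6%. The median share of unique words in a gene's own body was 99.6%, and 103 genes had 100%. Olfr688 was the only gene below 50%, with 34.0%, and reads of near-identical copies can be lost there at the mapping quality the study required.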

How the data were processed

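The authors trimmed reads, aligned them to mm10, removed duplicates and kept properly paired reads of mapping quality at least 10. The submitters' processing notes name cutadapt 4.3, Bowtie2 2.5.1, Picard, SAMtools and bedtools 2.30.0. The NRD value is a score deposited by the authors, a z-score of the relative deviation between fragments longer and shorter than 140 bp in 100 kb bins, smoothed over 10 bins, with domains called by homer2. The RT value is a log2 ratio deposited by the authors, (S1+S2)/(S3+S4) in 50 kb windows after quantile normalization. How a domain's value was made from its bins and whether the RT experiments were pooled are not given in the sources used here. Other libraries and tracks were not analysed here.

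Genes were those of GENCODE M21 on GRCm38, where chromosome 7 (145441459 bases) ends with the last RT domain. Genes were placed by midpoint, and genes under 500 kb apart formed a cluster. Base composition, repeats (soft-masked bases) and 100-base words were counted with Python 3.11.15, numpy 2.4.6, pandas 2.3.3 and numba 0.67.0. A word of chromosome 7 was unique if it occurred once over all main chromosomes, both strands included. Placement, word counts and motif search were tested on simulated data. Figures were drawn with matplotlib 3.10.9. Intervals of 95% are Wilson intervals from scipy 1.17.1. The members, the gene lists and the alternatives were chosen with earlier results of these data known. Named genes were the first and last of each run of calls, the members with the highest and lowest values, the receptors Olfr2, Olfr17, Olfr78 and Olfr558, and the globin genes; Trim and other enclosed genes and Olfr688 were named after their values were seen. The windows before GENCODE starts were added after the RefSeq windows had been seen. Alternatives were other placements, domain lengths, borders, gaps, cluster distances and sequence spans.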

Additional observations from a re-analysis of the deposited data

How the results depend on the processing

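Of 37 alternative values for 7 results, 22 stayed within the Wilson interval of a share, the counting interval of the A/T content, 1.5 times the number of clusters or 1 SD over the genes for a median, 13 moved farther and 2 changed sign. Members of a domain are not independent, so these intervals (69.6% to 80.4% for loose, 66.2% to 77.4% for late and 60.3% to 72.0% for both) are too narrow. Counted once each, 62.5% of the 8 clusters were mostly loose, 62.5% mostly late and 50% mostly both, and clusters 2 and 3 share both their domains. Without cluster 5, which holds most of the members, 67.8% of the genes were loose, 53.04% late and 48.7% both, an alternative chosen after seeing the data. For genes at least 100 kb inside a domain, 82.7% were late and 79.1% both. Over genes with both calls, also chosen after seeing the data, 79.1% were late and 73.6% both. The A/T content of the cluster spans was 60.1% outside repeats and 61.5% in gene bodies. With 1 value per domain the median wrapping index was 0.0828 and the median RT value 0.25, against −0.43 and −0.75 over genes; 7 TiNRDs held 58 genes and 6 LoNRDs 184. The means of the cluster medians were −0.063 and −0.0064. With neighbours under 250 kb apart, under 1 Mb apart, or 500 kb from midpoint to midpoint there were 9, 7 and 8 clusters. No paired analysis was possible because no result comes from a test and the lists hold no value per replicate. The depth behind each domain is unknown.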
